A study of Rattus norvegicus with 8 samples.

Results

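Heat shock proteins are molecular chaperones, which bind unfolded or newly made proteins, keep them from aggregating and help them to fold. When unfolded proteins accumulate, heat shock factor 1 binds repeated short elements upstream of chaperone genes and raises their transcription, so that the inducible members serve as a readout of protein folding stress, while others are made at all times. The liver, which makes most plasma proteins, uses both kinds. The data concern 10 rat genes of this system: the HSP70 chaperones Hspa1a, Hspa1b and Hspa8, the HSP110 exchange factor Hsph1, the HSP40 co-chaperones Dnajb1 and Dnaja1, the HSP70 co-chaperone Bag3, the small heat shock protein Hspb1, and Hspd1 and Hspe1. The last pair encode HSP60 and HSP10, which form the folding chamber of mitochondria and are therefore not cytosolic. The genes were chosen by name, as the non-control probes that carry these 10 symbols in the array's annotation. They made up 10 of 27109 gene names and had 17 of 45598 distinct probes. Of these 17 probes, 16 passed the filter on dim signals and represented 9 of the 10 genes, and Hspa1b had no tested probe.

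RNA was measured in cells cut by laser from livers of F344 rats and hybridised to 1-colour arrays. All recipients had been treated with retrorsine, which blocks division of hepatocytes, and partial hepatectomy (Ret/PH), after which clusters of small hepatocyte-like progenitor cells (SHPCs) appear. The 3 groups were mature hepatocytes (MHs; 2 samples), SHPC clusters from control livers (3 samples), and SHPC clusters from livers whose animals received bone marrow-derived mesenchymal cells (BM-MCs; 3 samples). The sample titles do not name the livers of the MHs. The paper's discussion places the MHs of its array clustering in livers that had received BM-MCs. The labels give all animals as DPPIV+, whereas the methods give DPPIV- female recipients and DPPIV+ male donors of BM-MCs, and the labels state neither the age nor the day of sampling. No source ties samples to animals, so p-values measure only the spread between these samples, which may be technical.

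Levels are given as log2 signal minus the 75th percentile of the array, so a level of 0 lies at that percentile, and levels of different probes are not comparable with each other. A gene with several probes is represented by its tested probe of highest mean signal. Of the 8 hepatocyte markers all were well above background, and Alb lay between 6.83 and 7.22 in the 8 samples. At an unadjusted p under 0.05, MHs were below control SHPCs for 4 of these 8, against 7.72% of all genes tested. Cyp3a2, a drug-metabolising enzyme of mature hepatocytes, was at -2.999 and -2.75 in the MHs and at 0.56, 0.79 and 1.15 in the controls. RNA of other cells was present as well. The summed signal of 8 Kupffer cell and macrophage markers, in multiples of the 75th percentile, was 56.5 to 65.4 in MHs, 30.7 to 44.7 in control SHPCs and 39.2 to 57.0 in SHPCs with BM-MCs, and each of the 8 was tested. The 7 erythroid markers summed to 72.3 in control SHPC replicate 3, against 10.6 to 28.0 in the other 7 samples. Most of that sum came from Hba-a1 (a level of 6.05), and Slc4a1 and Ahsp were not highest in that sample. In such bulk samples, fewer cells of a type and less RNA per cell cannot be told apart.

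The upstream sequence shows what the members share beyond their names. Heat shock elements are built from a short unit repeated in alternating orientation, and 2 neighbouring units read GAANNTTC or TTCNNGAA, where N is any base. Each of these motifs is its own reverse complement, so that both strands are searched at once, and the motifs overlap by 3 bases where 3 units follow each other. They were searched in the 250 bases before the transcript start in RefSeq promoters of the GRCr8 assembly, in which 9 of the 10 members were found and Hspa1b was not matched. At least 1 motif was present in 8 of these 9 members, against 13.5% of all 33469 promoters. GAANNTTC was found in 8 members and in 7.23% of all promoters, and TTCNNGAA in 4 members and in 7.48%. No match was found before the annotated start of Hspa1a, which says only that these letters are not in that window. That window lies within the annotated span of the neighbouring gene Hspa1l, and whether the annotated start is the main start of Hspa1a was not tested. The stretches below are printed 5′ to 3′ on the gene's strand, because they hold the densest match of each gene, which for Hspa8 is the one nearer the start of 2 equally dense ones, and capitals mark the motif letters.
Hspa8, chr8:50080439-50080491, plus strand: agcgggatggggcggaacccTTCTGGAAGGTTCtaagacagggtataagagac
Hsph1, chr12:10427312-10427364, plus strand: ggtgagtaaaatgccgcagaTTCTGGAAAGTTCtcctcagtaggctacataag
Dnajb1, chr19:41431142-41431172, minus strand: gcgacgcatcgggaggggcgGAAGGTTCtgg
Dnaja1, chr5:60638203-60638250, plus strand: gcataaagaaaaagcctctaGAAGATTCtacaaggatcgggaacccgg
Bag3, chr1:192533308-192533355, plus strand: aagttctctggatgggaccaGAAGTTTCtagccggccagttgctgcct
Hspb1, chr12:26432383-26432450, minus strand: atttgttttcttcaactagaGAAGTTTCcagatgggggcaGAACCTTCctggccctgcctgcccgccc
Hspe1, chr9:64084256-64084285, plus strand: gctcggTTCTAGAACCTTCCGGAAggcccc

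Hspe1 and Hspd1 are neighbours on chromosome 9, transcribed in opposite directions, and the 30 bases shown for Hspe1 are the same 30 bases that were found for Hspd1 on the other strand. They begin at position -71 from the start of Hspe1 and at position -248 from that of Hspd1, and they hold 3 motifs in a row for both genes. They also lie within the annotated span of Hspd1, which reaches upstream of the start used here, and 2 of the 8 members with a motif thus rest on the same bases. Hspa8 had 4 motifs in 2 places, and Hsph1 had 3. A match of letters is a description of the sequence and not a measured binding site.

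**Figure D1:**
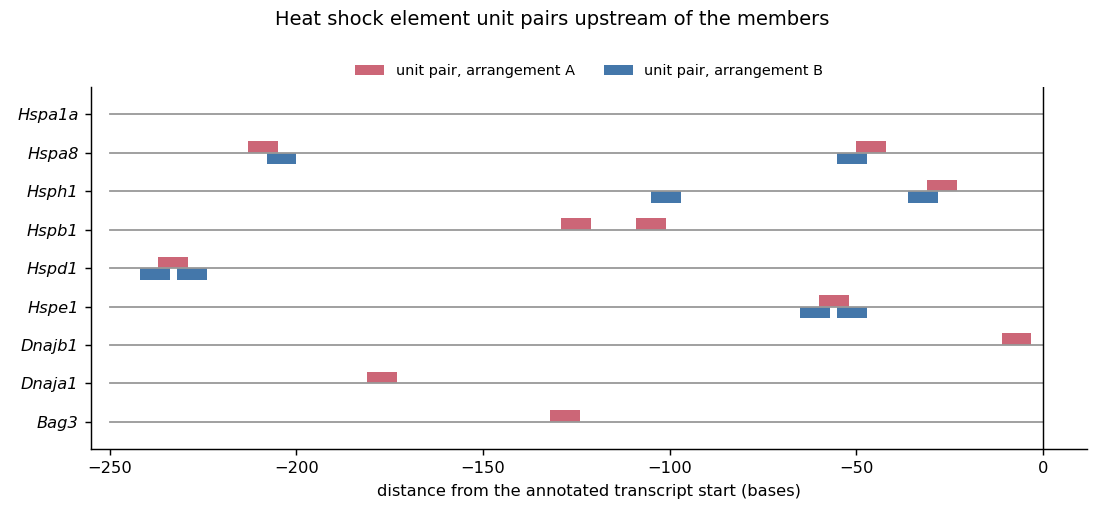
Position of heat shock element unit pairs in the 250 bases before the annotated transcript start of 9 heat shock genes, with distance from the start in bases on the x axis and 1 line per gene. Arrangement A is GAANNTTC and arrangement B is TTCNNGAA. Hspa8 has 4 matches, Hspd1, Hspe1 and Hsph1 have 3 each, and Hspa1a has none in this window.

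The first comparison set MHs against control SHPCs, and asks how progenitor clusters of control livers differ from mature hepatocytes. Most cytosolic members lay higher in MHs, although none passed the adjusted test, and the mitochondrial pair did not lie higher. Bag3, Hspa1a, Hspb1, Dnajb1, Hsph1 and Dnaja1 were each higher in both MH samples than in all 3 control SHPC samples, that is 6 of the 9 tested members, against 25.5% of all 14536 genes tested that were apart in this direction. In the opposite direction 1 of 9 was apart, Hspe1, against 16.9% of all genes. None of the 9 passed an adjusted p under 0.05 in limma, a threshold that 1.22% of all genes passed in either direction. At an unadjusted p under 0.05, 4 members were higher (Bag3, Hspa1a, Hspb1 and Hsph1), against 12.5% of all genes, and 0 were lower, against 7.72%. The median log2 difference of the 9 members was 0.45, against 0.06 over all genes, and 7 of 9 were above 0 against 57.2% of all genes. Markers of other cells moved between the same groups. At an unadjusted p under 0.05, 5 of the 8 Kupffer cell and macrophage markers, whose sums are given above, were higher in MHs, as were 2 of 6 endothelial markers (Stab2 and Fcgr2b), with sums of 15.1 to 18.4 in MHs and 13.3 to 15.2 in controls. Lower in MHs were 3 of 7 stellate cell and fibroblast markers (Dcn, Col1a1 and Pdgfrb), with Lrat of the same list higher, and 2 of 6 biliary markers (Krt19 and Cftr). The part of these cells in the result was not tested.

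Hspa1a encodes the stress-inducible HSP70, which is scarce in resting cells and is made in large amounts after heat or other damage to proteins. Its brightest probe was at 0.40 and -0.24 in the MHs, at -0.59, -0.55 and -0.54 in control SHPCs, and at -0.41, -0.73 and -1.04 in SHPCs with BM-MCs. The MHs were thus above all 6 SHPC samples, the controls lay within a very narrow range, and the MHs differed from each other by more than the controls did. MHs exceeded control SHPCs by 0.64 on the log2 scale (SE 0.24, 95% interval 0.09 to 1.19), a 1.56-fold difference with an adjusted p = 0.22 from limma. Without MH replicate 1 the difference was 0.32, and without MH replicate 2 it was 0.96.

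The other Hspa1a probe disagreed with it in 1 sample. It lies at chr20:3956838-3956897 in the array's rn4 annotation, on the plus strand, and its sequence is shown because the readings of the gene rest on the choice of probe.
Hspa1a, second probe: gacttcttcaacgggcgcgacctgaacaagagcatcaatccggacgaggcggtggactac
It was at -3.82 and -4.52 in the MHs, at -4.90, -4.998 and -2.81 in control SHPCs, and at -4.69, -5.15 and -5.57 in SHPCs with BM-MCs. This probe was dim, although well above background on all 7 arrays with complete marks. In replicate 3 of SHPCs with BM-MCs it lay close to the lowest signal so marked on that array (24.8, where the 75th percentile was 1366). Control SHPC replicate 3 was the highest of all samples on this probe and lay beside the other controls on the first, while the order of the other 7 samples was alike on both probes except among control replicates 1 and 2. With this probe the difference between MHs and control SHPCs was 0.06 (SE 0.65, adjusted p = 0.97 from limma), and with the mean of both probes it was 0.35. Hspa1a and Hspa1b are neighbouring genes with nearly identical coding sequence, so that a signal of either probe cannot be given to one of them with certainty. The single Hspa1b probe was not well above background on any of the 7 arrays with complete marks, and was not tested.

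Hspa8 encodes HSC70, the HSP70 that cells make at all times for routine folding and for the uncoating of clathrin vesicles. It was at 7.26 and 7.16 in the MHs, at 7.17, 7.13 and 6.87 in control SHPCs, and at 6.95, 7.17 and 7.05 in SHPCs with BM-MCs. On this brightest probe the 3 groups overlapped. The difference between MHs and control SHPCs was 0.15 (SE 0.14, 95% interval -0.17 to 0.48, adjusted p = 0.57 from limma). Hspa8 differed by 0.06 without control replicate 3 and by 0.21 without control replicate 1. Of its 4 probes, those next in brightness gave 0.19 and 0.21, with both MHs above all 6 SHPC samples on each, and the last gave -0.19 (SE 0.22), so that the dimmest probe was the only one of the 4 below 0.

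Hsph1 encodes HSP110, which releases ADP from HSP70 and works with it in pulling aggregates apart. It was at -1.75 and -2.05 in the MHs, at -2.31, -2.35 and -2.39 in control SHPCs, and at -2.13, -2.02 and -2.22 in SHPCs with BM-MCs. All 3 controls were below the other 5 samples, and MHs and SHPCs with BM-MCs overlapped. MHs exceeded controls by 0.45 (SE 0.13, 95% interval 0.14 to 0.76, adjusted p = 0.16 from limma).

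The HSP40 proteins bring unfolded clients to HSP70 and start its hydrolysis of ATP. Dnajb1, the heat-inducible HSP40, was at 0.60 and 0.12 in the MHs, at -0.05, -0.00 and -0.24 in control SHPCs, and at 0.06, 0.06 and -0.33 in SHPCs with BM-MCs. Both MHs were above all 6 SHPC samples, by a small margin for MH replicate 2, and the SHPC groups overlapped. The log2 difference between MHs and controls was 0.46 (SE 0.20, 95% interval -0.00 to 0.92, adjusted p = 0.26 from limma). Without MH replicate 1 it was 0.21, and without MH replicate 2 it was 0.70. Dnaja1, an HSP40 found in most cells, was at 2.25 and 2.28 in the MHs, at 2.08, 2.02 and 1.97 in control SHPCs, and at 2.07, 1.74 and 1.86 in SHPCs with BM-MCs. The MHs were again the highest, and exceeded controls by 0.24 (SE 0.13, 95% interval -0.06 to 0.55, adjusted p = 0.35 from limma).

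Bag3 links HSP70 to the small heat shock proteins and guides damaged clients to autophagy. It was at 1.72 and 1.58 in the MHs, at 1.14, 0.96 and 0.98 in control SHPCs, and at 1.21, 1.01 and 0.75 in SHPCs with BM-MCs. Both MHs were clearly above the 6 SHPC samples, and the SHPC groups overlapped. MHs exceeded control SHPCs by 0.62 (SE 0.16, 95% interval 0.25 to 0.998), a 1.54-fold difference with an unadjusted p = 0.0055 and an adjusted p = 0.13 from limma. Its adjusted p lay between 0.056 and 0.40 over the 22 alternatives run for this comparison, none of which called it.

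Hspb1 encodes HSP27, a small heat shock protein that holds unfolded clients without ATP and stabilises actin. Its probe is shown because, in the main limma fit, Hspb1 had the lowest p of the members for SHPCs with BM-MCs against control SHPCs. It spans 171 bases of the minus strand at chr12:21911494-21911664 in the rn4 annotation with 60 bases of sequence, so that it crosses an intron, and it was spotted 10 times on each array.
Hspb1 probe: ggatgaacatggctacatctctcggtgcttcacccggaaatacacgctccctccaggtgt
It was at 0.06 and 0.60 in the MHs, at -0.05, -0.27 and -0.31 in control SHPCs, and at 0.60, 0.12 and 0.40 in SHPCs with BM-MCs. All 3 controls were below the other 5 samples. The SD among spots of the same array was 0.035 to 0.077, below the SD between samples of 0.38 in MHs, 0.14 in controls and 0.24 in SHPCs with BM-MCs. MHs exceeded controls by 0.54 (SE 0.21, 95% interval 0.05 to 1.03, adjusted p = 0.23 from limma). That difference was 0.27 without MH replicate 2 and 0.81 without MH replicate 1.

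Hspd1 and Hspe1, the mitochondrial pair, were not higher in both MHs than in the controls. Hspd1 was at 4.93 and 5.01 in the MHs, at 4.98, 5.02 and 5.07 in control SHPCs, and at 4.95, 4.93 and 4.96 in SHPCs with BM-MCs. MHs overlapped with both other groups, and the difference from controls was -0.05 (SE 0.11, 95% interval -0.30 to 0.19, adjusted p = 0.81 from limma). Its 2 other probes gave -0.41 and -0.21. Hspe1 was at 5.01 and 5.05 in the MHs, at 5.15, 5.17 and 5.16 in control SHPCs, and at 4.95, 5.01 and 5.004 in SHPCs with BM-MCs. All 3 controls were above the other 5 samples, by a margin that was small in size, with -0.13 for MHs against controls (SE 0.10, 95% interval -0.37 to 0.11, adjusted p = 0.51 from limma). The second Hspe1 probe, also spotted 10 times, gave -0.24 (SE 0.11, adjusted p = 0.27 from limma).

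**Figure D2:**
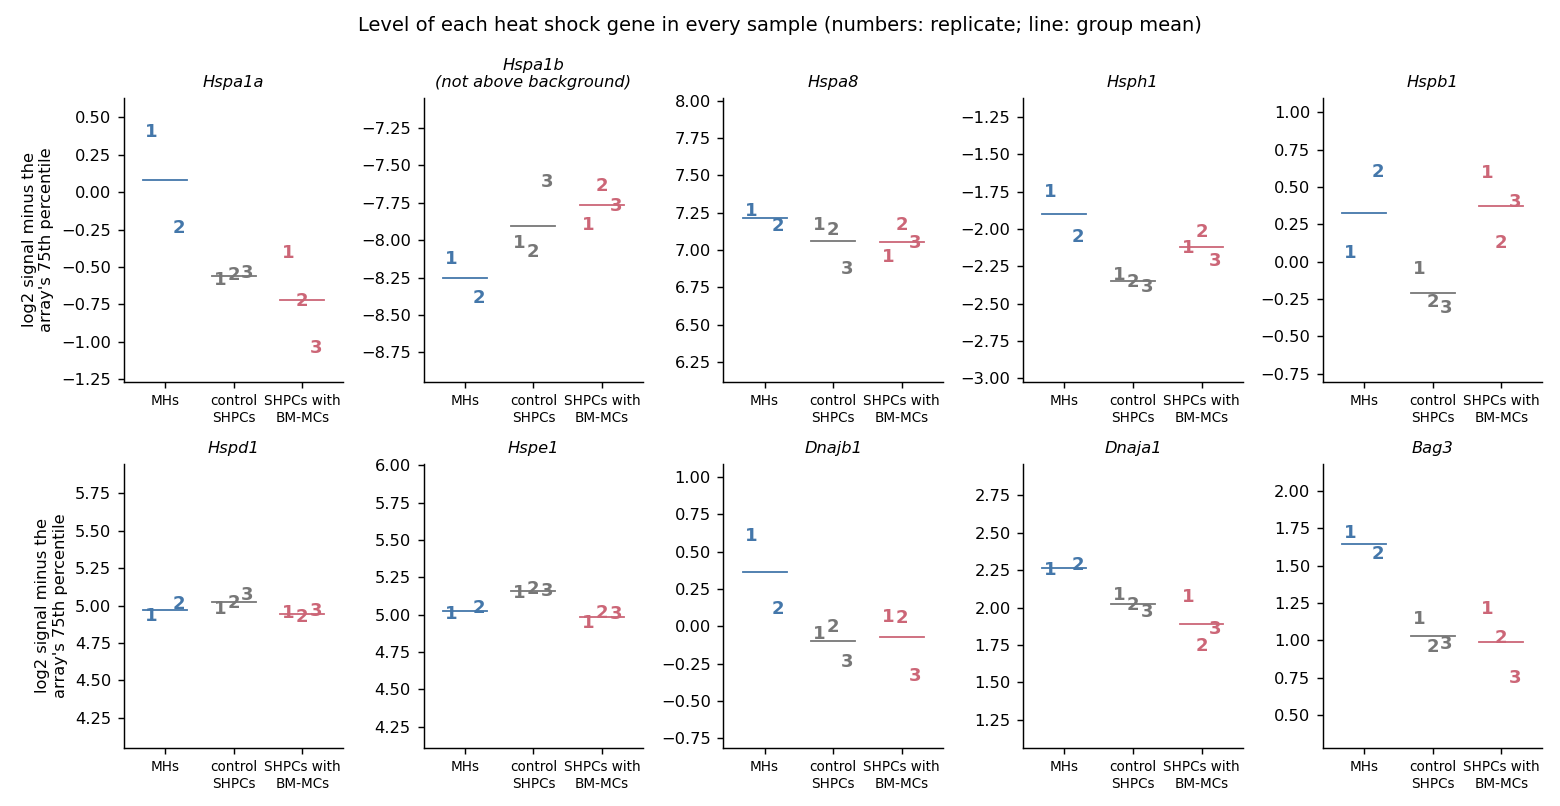
Level of the 10 heat shock genes in each of the 8 samples, as log2 signal minus the 75th percentile of the array, on axes of equal span but different position. Digits give the replicate and lines the group mean. Bag3, Dnaja1, Dnajb1 and Hspa1a are highest in both MH samples, Hspb1 and Hsph1 are lowest in the 3 controls, and Hspe1 is highest in them.

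**Figure D3:**
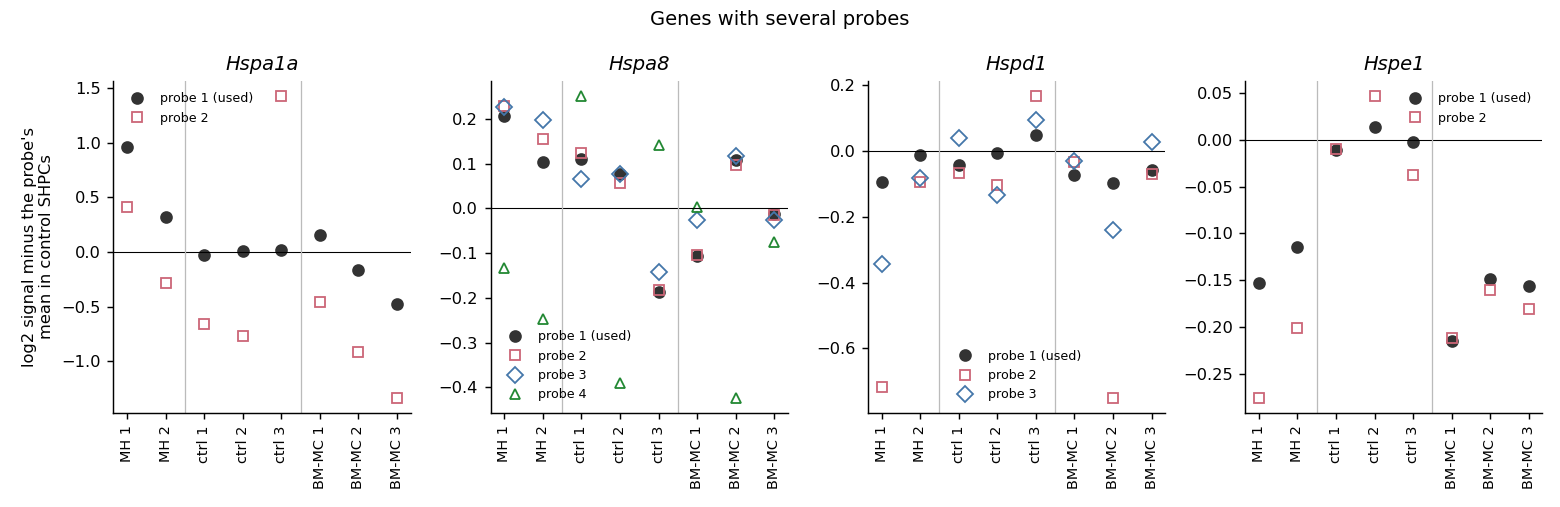
The 4 genes with several probes, each probe as log2 signal minus its own mean in control SHPCs, for the 8 samples on the x axis (ctrl, control SHPCs; BM-MC, SHPCs with BM-MCs). The second Hspa1a probe is far higher in control SHPC replicate 3 (a level of -2.81 before that subtraction) than in any other sample, whereas the first is not. Axes differ in range.

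The second comparison set SHPCs with BM-MCs against control SHPCs, and asks what the transplanted cells alter in the clusters. With the brightest probe of each gene, the largest difference was that of Hspb1, and those of the other 8 members lay within 0.23 of 0 in either direction. The dim second Hspa1a probe, on which control SHPC replicate 3 stood apart, differed by more, at -0.90 (SE 0.61, 95% interval -2.37 to 0.57, adjusted p = 0.48 from limma). The 2 other Hspd1 probes gave -0.28 and -0.08, and the groups overlapped on both. None of the 9 tested members passed an adjusted p under 0.05 in limma, against 0.0275% of all genes. At an unadjusted p under 0.05, 1 member was higher, Hspb1, against 10.3% of all genes, and 0 were lower, against 5.85%. Groups did not overlap for 2 members that were higher, Hspb1 and Hsph1 (13.3% of all genes), and for 2 that were lower, Hspd1 and Hspe1 (11.3% of all genes). Counts of 1 or 2 among 9 genes cannot be told from these shares. The median log2 difference was -0.03, against 0.02 over all genes, and 3 of the 9 were above 0, against 53.5% of all genes. The methods' t-test, unadjusted at the threshold of the methods, called 2 members higher (Hspb1, Hsph1), against 8.25% of all genes, and 1 lower (Hspe1), against 6.93%, and none after Benjamini-Hochberg adjustment.

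Hspb1 was higher with BM-MCs by 0.58 on the log2 scale (SE 0.16, 95% interval 0.20 to 0.96), a 1.495-fold difference with an unadjusted p = 0.0095 and an adjusted p = 0.19 from limma. All 3 samples with BM-MCs were above all 3 controls. Markers of other cells moved between the same groups. The 3 tested neutrophil markers, S100a8, S100a9 and Retnlg, were lower at an unadjusted p under 0.05, and the summed signal of the 7 listed was 0.393 to 0.508 with BM-MCs and 1.18 to 1.62 in controls, with Mpo, Csf3r, Ngp and Camp above background on no array. Erythroid markers were lower at the same threshold for 4 of 7, with sums of 10.6 to 14.4 and of 21.3 to 72.3. Endothelial markers were higher for 2 of 6 (Stab2, Kdr), with sums of 15.3 to 17.2 and of 13.3 to 15.2, and macrophage markers for 1 of 8 (Cd163). Des was also higher, 1 of 7 tested stellate cell and fibroblast markers. Epcam, 1 of 6 tested biliary markers, and Cd3d, 1 of 3 tested lymphocyte markers, were lower. None of these passed an adjusted p under 0.05, and their part in the result was not tested. The Hspb1 difference lay between 0.47 and 0.71 with each of the 6 samples left out in turn, and it was 0.68 within the set of 4 arrays that held all 3 samples with BM-MCs and control replicate 3. Scaling each array to its median, which moves the median of all genes in this comparison from 0.02 to -0.17, gave 0.39, and no member was then apart in the higher direction, against 5.78% of all genes.

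Hsph1 differed by 0.23 (SE 0.11, 95% interval -0.03 to 0.49, adjusted p = 0.34 from limma), and under scaling to the median by 0.04. Hspe1 differed by -0.17 (SE 0.10, 95% interval -0.40 to 0.06, adjusted p = 0.40 from limma), and its second probe by -0.18. Under scaling to the median Hspe1 was at -0.36 and was then the single member with an unadjusted p under 0.05, at an adjusted p = 0.17 from limma. The remaining intervals bound what these samples could show. They were -0.58 to 0.26 for the brightest Hspa1a probe (difference -0.16, and -0.53 for the mean of both probes), -0.32 to 0.31 for Hspa8 (-0.00), and -0.31 to 0.16 for Hspd1 (-0.08). For the co-chaperones they were -0.34 to 0.39 for Dnajb1 (0.02), -0.44 to 0.16 for Dnaja1 (-0.14) and -0.40 to 0.33 for Bag3 (-0.03). On the brightest Hspa1a probe SHPCs with BM-MCs had an SD of 0.32 against 0.025 in controls, and on the second probe the order was reversed, with 0.44 against 1.24. Replicate 3 was the lowest of the SHPCs with BM-MCs for Hspa1a, Dnajb1 and Bag3. Without it the difference on the brightest Hspa1a probe was -0.007, and without replicate 1 of that group it was -0.32.

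The third comparison set SHPCs with BM-MCs against MHs. It shares its samples with the other 2, so that the 3 results are not independent of each other. The first set of 4 arrays on the slide held both MHs, and the second held all 3 SHPCs with BM-MCs. Group and set of arrays therefore cannot be told apart in this comparison. Hspa1a, Bag3, Dnajb1 and Dnaja1 lay lower in SHPCs with BM-MCs, although none passed the adjusted test. The Kupffer cell and macrophage markers lay the same way, with 3 of 8 lower at an unadjusted p under 0.05 (Cd68, Adgre1 and Csf1r), a median of -0.39 and sums of 39.2 to 57.0 against 56.5 to 65.4 in MHs. At the same threshold 4 of 7 stellate cell and fibroblast markers (Des, Dcn, Col1a1 and Pdgfrb) and 3 of 8 hepatocyte markers (Apoa1, Cyp3a2 and Tat) were higher. The part of these in the result was not tested. Groups did not overlap for 4 of the 9 members, all lower with BM-MCs (Bag3, Dnaja1, Dnajb1 and Hspa1a), against 18.0% of all genes, and for 0 that were higher, against 14.9%. None passed an adjusted p under 0.05 in limma, against 0.406% of all genes. At an unadjusted p under 0.05, 3 were lower (Bag3, Dnaja1 and Hspa1a), against 6.72%, and 0 were higher, against 6.8%. The log2 difference was -0.81 for Hspa1a (SE 0.24, adjusted p = 0.28 from limma), -0.66 for Bag3 (SE 0.16, adjusted p = 0.22 from limma) and -0.38 for Dnaja1 (SE 0.13, adjusted p = 0.32 from limma). Dnajb1 differed by -0.43 (SE 0.20, adjusted p = 0.39 from limma). The MHs set the size of 2 of these values, which were -0.49 for Hspa1a and -0.19 for Dnajb1 without MH replicate 1, and -1.13 and -0.68 without MH replicate 2. The second Hspa1a probe gave -0.96 (SE 0.65, adjusted p = 0.54 from limma). Hspb1 lay at 0.04 (SE 0.21, 95% interval -0.45 to 0.53), between -0.23 without MH replicate 1 and 0.31 without MH replicate 2, so that its sign rests on a single sample.

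Single samples set several of these counts. Between MHs and control SHPCs the median difference of the members was 0.45, and 0.26 without MH replicate 1. The 4 members with an unadjusted p under 0.05 became 3 without control replicate 1 and 2 without control replicate 2 or 3. They were also 2 in a fit with a term for the 2 sets of arrays on the slide. Between SHPCs with BM-MCs and MHs the 3 became 0 in the fit with that term. They became 5 with scaling to the array median, which moved the median of all genes from -0.02 to -0.22. That term rests on the control SHPCs, the only group present in both sets, with replicate 3 alone in the second. Shares of all genes past the threshold were not counted for these fits. A loss among the members therefore cannot be told from a loss over all genes. Within the set of 4 arrays shared by both MHs and control SHPC replicates 1 and 2, the differences were 0.60 for Bag3, 0.65 for Hspa1a, 0.49 for Hspb1, 0.43 for Hsph1, 0.39 for Dnajb1 and 0.22 for Dnaja1.

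**Figure D4:**
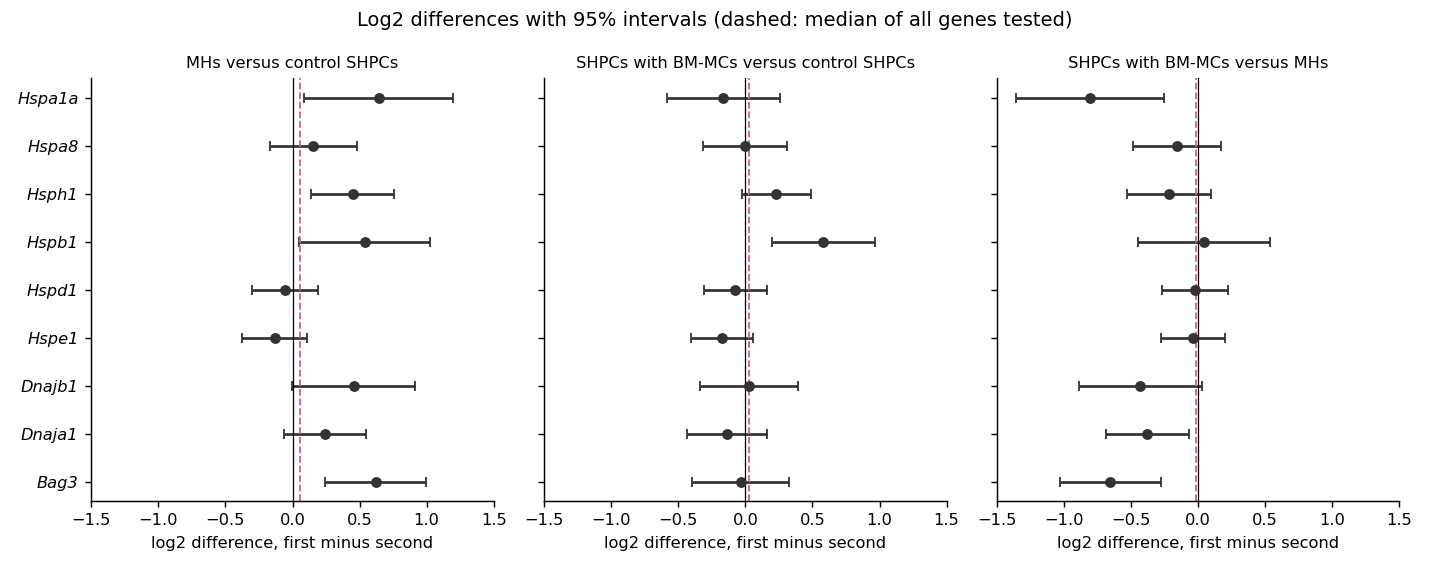
Log2 difference of 9 tested heat shock genes in the 3 comparisons, with 95% intervals from limma. The solid line is at 0 and the dashed line at the median of all 14536 genes tested. Intervals for Bag3, Hspa1a, Hspb1 and Hsph1 lie above 0 for MHs against control SHPCs, and that of Hspb1 alone does so for SHPCs with BM-MCs against control SHPCs.

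Other genes of the chaperone network place the members in their setting. The list of heat shock factors and other stress-inducible genes had 17 of 19 tested. None passed the adjusted threshold in any of the 3 comparisons. In MHs against control SHPCs, 13 of 17 were above 0, against 57.2% of all genes, and the median was 0.13 against 0.06 over all genes. At an unadjusted p under 0.05, 4 were higher and 0 lower, against 12.5% and 7.72% of all genes. Sqstm1, the autophagy receptor p62, was at 4.89 and 4.65 in the MHs and at 4.05, 3.95 and 3.78 in controls, a difference of 0.84 (SE 0.18, adjusted p = 0.092 from limma). Hsf4, a heat shock factor known from the lens, was higher by 0.94 in MHs (adjusted p = 0.13 from limma) and by 0.80 with BM-MCs (adjusted p = 0.21 from limma). It was dim, at -5.06, -4.78 and -5.13 in control SHPCs. Hsf1 itself differed by -0.02 between MHs and control SHPCs (adjusted p = 0.94 from limma). With BM-MCs all 3 samples were above the other 5, by 0.23 against control SHPCs (SE 0.13, adjusted p = 0.39 from limma) and by 0.25 against MHs (SE 0.14, adjusted p = 0.45 from limma). Cacybp, a partner of the ubiquitin ligase Siah1, had a difference of -0.40 with BM-MCs (adjusted p = 0.27 from limma).

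The HSP90 chaperone and its helpers had 11 of 11 tested and none passed. Hsp90aa1, the inducible HSP90, was at 4.67 and 4.97 in the MHs, at 4.52, 4.28 and 4.19 in control SHPCs, and at 4.75, 4.37 and 4.52 in SHPCs with BM-MCs, and MHs exceeded controls by 0.49 (SE 0.17, adjusted p = 0.20 from limma). Hsp90ab1, the constitutive HSP90, differed by 0.37 in MHs (adjusted p = 0.31 from limma) and by 0.36 with BM-MCs (adjusted p = 0.29 from limma). Fkbp5, a glucocorticoid-inducible HSP90 co-chaperone, differed by -0.53 with BM-MCs (adjusted p = 0.27 from limma). The median of the list was 0.08 in MHs against controls.

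The 4 other lists of folding machinery, of which the last holds genes induced by unfolded protein in the endoplasmic reticulum, had medians below 0 in MHs against control SHPCs. The other cytosolic HSP70 and HSP40 genes (17 of 17 tested) had a median of -0.03, and Bag2, an inhibitor of the ubiquitin ligase Stub1, differed by -0.61 (adjusted p = 0.18 from limma), and Dnajb5, an HSP40, by -0.95 (adjusted p = 0.27 from limma). Dnajb5 was dim, at -5.38 and -5.47 in the MHs, and was well above background on 6 of the 7 arrays with complete marks. TRiC and prefoldin, which fold actin and tubulin, had 13 of 13 measured subunits tested and a median of -0.13. Of these, 2 of 13 were above 0, against 57.2% of all genes. Cct5 was lowest in p at -0.31 (adjusted p = 0.23 from limma), followed by Pfdn6 at -0.33 (adjusted p = 0.26 from limma). The other mitochondrial chaperones and proteases (11 of 11 measured genes tested) had a median of -0.14, with Dnajc19 at -0.51 (adjusted p = 0.15 from limma) and Grpel1 at -0.46 (adjusted p = 0.18 from limma). Chaperones of the endoplasmic reticulum (13 of 13 tested) had a median of -0.15, although Calr, the lectin chaperone calreticulin, was higher by 0.64 (adjusted p = 0.16 from limma), followed in p by Dnajb11 at -0.33 (adjusted p = 0.26 from limma). In the 3 comparisons 0 genes of these 4 lists were called at the adjusted threshold.

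With BM-MCs against control SHPCs, the same lists had medians of -0.17 for other cytosolic HSP70 and HSP40 genes, with 3 of 17 above 0, -0.16 for TRiC and prefoldin, with 2 of 13 above 0, -0.07 for mitochondrial and -0.02 for endoplasmic reticulum chaperones. Of all genes 53.5% were above 0, with a median of 0.02. Dnaja2, an HSP40, differed by -0.37 (adjusted p = 0.27 from limma) and Bag2 by -0.45 (adjusted p = 0.29 from limma). Pfdn4, a prefoldin subunit, differed by -0.38 (adjusted p = 0.25 from limma) and Cct5 by -0.22 (adjusted p = 0.37 from limma). Of the mitochondrial list, Dnajc19 differed by -0.33 (adjusted p = 0.31 from limma) and Grpel1 by -0.25 (adjusted p = 0.41 from limma). Calr was higher by 0.73 (adjusted p = 0.17 from limma), and Dnajb9, an endoplasmic reticulum HSP40, differed by -0.37 (adjusted p = 0.29 from limma). Immediate early genes, which respond within minutes to growth factors or to handling of tissue, had 14 of 18 tested and a median of 0.30. At an unadjusted p under 0.05, 5 were higher, against 10.3% of all genes, and none passed the adjusted threshold. Jun, a subunit of the transcription factor AP-1, differed by 1.26 with BM-MCs (adjusted p = 0.13 from limma), and Nr4a1, an orphan nuclear receptor, by 1.03 (adjusted p = 0.18 from limma). Between MHs and controls the lowest p of the list was that of Nr4a1 at -1.70 (adjusted p = 0.051 from limma), followed by Jund, a relative of Jun, at 0.30 (adjusted p = 0.31 from limma). Nr4a1 was also the single gene of all these lists to pass in any comparison. It was at -3.21 and -2.66 in the MHs, at -1.30, -1.30 and -1.11 in control SHPCs, and at -0.75, -0.11 and 0.26 in SHPCs with BM-MCs, and was higher by 2.73 with BM-MCs than in MHs (SE 0.30, adjusted p = 0.024 from limma). Fos, Fosb and Fosl1 were not well above background on any array with complete marks.

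**Figure D5:**
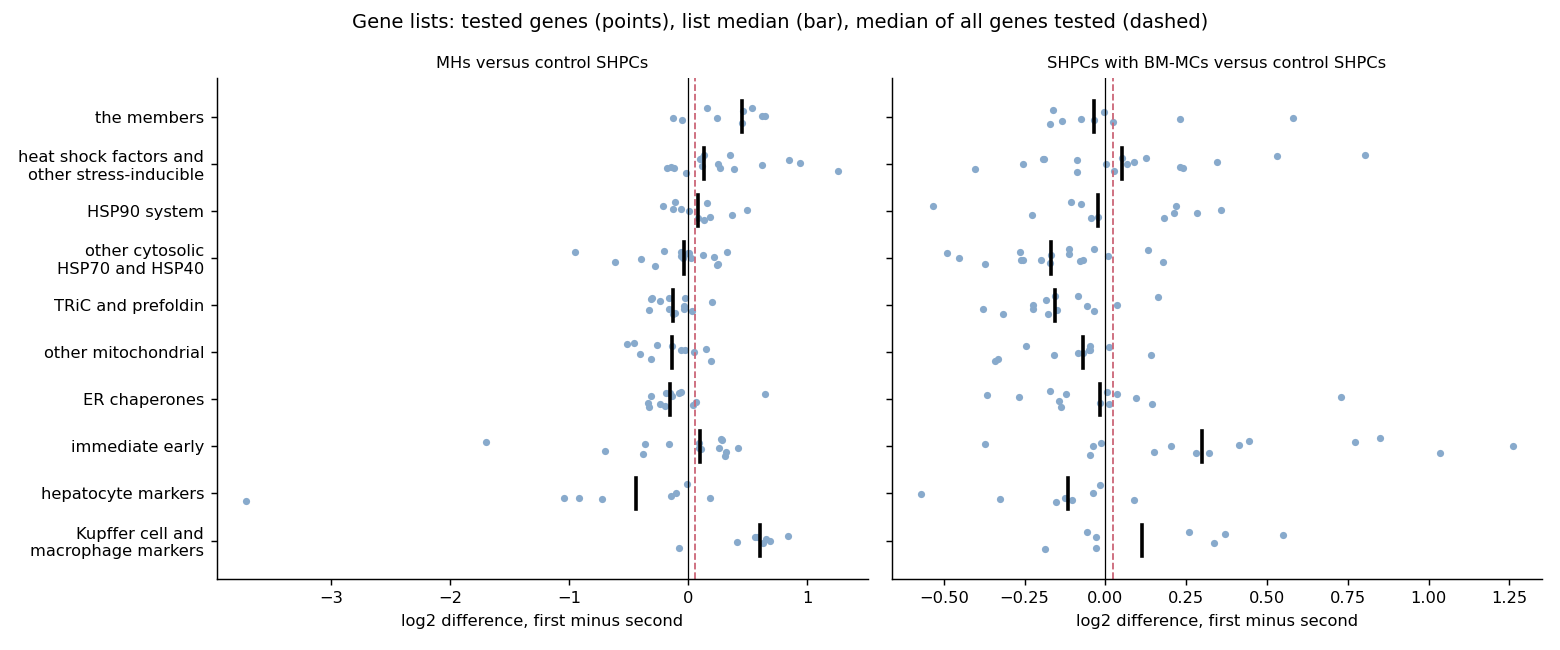
Log2 differences of the tested genes of 10 gene lists (points), with the list median (black bar), for MHs against control SHPCs (left) and SHPCs with BM-MCs against control SHPCs (right). The dashed line is the median of all genes tested, 0.06 and 0.02. The member list has a median of 0.45 on the left and -0.03 on the right, the Kupffer cell and macrophage markers 0.60 and 0.11.

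The profile over the 8 samples was compared with those of 14443 genes that had a value on every array, as the root-mean-square difference of log2 values after each was centred on its own mean. Nearest to the mean profile of the 9 tested members were Rnf13 (0.035), Bcap31 (0.036), Snrnp35 (0.041), Serinc3 (0.042) and Pon2 (0.042), where the profile itself had a root-mean-square size of 0.15. Nearest to Hspa1a, whose profile had a size of 0.39, were Ugt2b34l1 (0.088), Thbd (0.13), Irag1 (0.14), Tcn2 (0.14) and Slc16a13 (0.15). Whether other genes have neighbours as near as these was not tested.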

How the data were processed

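The authors deposited scanner files and a value table of the same processed signal, an intensity already corrected for background by Agilent Feature Extraction 10.7 and not scaled between arrays. Because the scanner file of control SHPC replicate 2 held only 20903 of 62976 features, the value table supplied that sample's signals, and its background marks played no part in the filter. Signals were scaled to the 75th percentile of their array, expressed as log2, and averaged over the spots of a probe without outlier spots. For control SHPC replicate 2, outlier marks existed for only 19479 of 58717 non-control spots, and its other spots were all kept. limma 3.58.1 (R 4.3.3) with Benjamini-Hochberg adjustment was applied to the 23111 probes with a spot well above background on at least 3 of 7 arrays. The 6 SHPC samples formed 1 fit, and all 8 samples formed the fit for comparisons with MHs. These steps were tested on simulated data. The single slide held both MHs and control replicates 1 and 2 in its first set of arrays and the other 4 samples in its second. Well above background were 57.0% to 61.5% of the spots, and the number of arrays limits the precision. Symbols were updated through RefSeq by accession for 21087 probes, by symbol for 6689 and by synonym for 424, while 7635 kept the array's name and 9746 had none.

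Members and lists were chosen with earlier results of these data known. All members are named. Other genes named are, per list and for each of the first 2 comparisons, those past the threshold or the 2 of lowest p, and the 5 profiles nearest to the members and to Hspa1a. Alb, Cyp3a2, Hsf1, Fos, Fosb, Fosl1 and single markers of other cells were chosen after their values were seen. Alternatives in scaling, filter, background, probe choice, blocks, test and samples were run for each comparison.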

Additional observations from a re-analysis of the deposited data

How the results depend on the processing

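No member passed an adjusted p under 0.05 in limma or the methods' t-test under any of 21 alternatives for SHPCs with BM-MCs against control SHPCs or 22 for each other comparison. The median log2 difference of the members in MHs against control SHPCs moved from 0.45 to 0.35 with normexp background correction without control SHPC replicate 2 and to 0.35 with the mean over the probes of a gene, and lay between 0.26 and 0.47 with single samples left out. Scaling to the array median moved it from -0.03 to -0.23 for SHPCs with BM-MCs against control SHPCs (-0.08 to 0.02 with single samples left out) and from -0.22 to -0.42 for SHPCs with BM-MCs against MHs (-0.36 to -0.17). The shift of all genes under that scaling was of like size, with a median of -0.17 and -0.22 over all genes. The number of members apart between SHPCs with BM-MCs and MHs then became 8 in place of 4, where 40.3% of all genes were apart in this direction in place of 18.0%. For SHPCs with BM-MCs against control SHPCs, Hspb1 lost its unadjusted p under 0.05 under that scaling and, at an almost equal difference of 0.59, with no scaling, and the members past it went from 1 higher and 0 lower to 0 higher and 1 lower (Hspe1, -0.36) under scaling to the median. For MHs against control SHPCs it lost it with no scaling (0.63) and quantile normalization (0.48), and not under the median. With no scaling 8 of 9 members were above 0 in MHs (Hspd1 at 0.04), as were 67.5% of all genes, and with quantile normalization 8 of 9, as were 55.4%. Hspe1 was not apart in MHs under any of the 3 other scalings. Over all probes the calls in SHPCs with BM-MCs against control SHPCs were 5 higher and 0 lower, and over the alternatives 0 to 490 higher, the most without control SHPC replicate 3 (40 lower), and 0 to 57 lower, the most with array weights (269 higher). For MHs against control SHPCs the 50 higher and 212 lower became 4 higher without control replicate 1 and 49 lower without MH replicate 1, and 214 and 309 without replicate 3 of SHPCs with BM-MCs. For SHPCs with BM-MCs against MHs the 74 higher became 0 without MH replicate 1.

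The replicate numbers do not pair samples by the labels, and deviations of same-numbered SHPC samples correlated at 0.13, 0.078 and 0.17. Every sample but control replicate 2 correlated best with its own number. With the replicate block the adjusted p of Hspb1 was 0.23 for SHPCs with BM-MCs, the median of the members in MHs was 0.36, and probes called in SHPCs with BM-MCs against control SHPCs went from 5 to 0.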
